A study of Mus musculus with 6 samples.

Results

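The metallothionein genes Mt1 and Mt2 were the rows of the deposited liver expression table with those symbols, 2 of its 389 genes. The table compares livers of Usp28 whole-body knockout mice (KO, 3 samples) with livers of Usp28 wild-type mice (WT, 3 samples). The Usp28 product is a deubiquitinase and takes ubiquitin off its substrate proteins. Mice of both genotypes were 8 weeks old when they began 4 weeks on a methionine-choline deficient diet, which induces steatohepatitis. A control diet was not analysed here, and the labels give no sex and do not say that the samples of a group came from separate animals. P-values therefore rest on the spread among the samples, which may be technical in part.

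Metallothioneins are small cysteine-rich proteins that bind zinc and copper and sequester toxic metals such as cadmium. In the liver Mt1 and Mt2 are inducible genes. Zinc acts through the transcription factor MTF1, which binds short metal response elements (MREs), and glucocorticoids, the interleukin-6 and STAT3 pathway and oxidative stress also raise their transcription. Mt3, best known from the brain, and Mt4, best known from stratified epithelium, lie in the same cluster.

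The authors had already selected the 389 genes for a difference between KO and WT (smallest absolute log2 fold change 1.004, largest FDR 0.0494, both in the authors' deposited table). That Mt1 and Mt2 differ between genotypes is thus part of how the table was made, and the tests below describe its size and error. Sequencing depth, recovered from counts and FPKM (fragments per transcript length and library depth), was 20350000 to 24160000 reads per library. Usp28 had no row, so the genotype was not checked against the targeted gene. Of 12 hepatocyte markers 1 had a row, Fabp1, at 1195 to 4741 FPKM. No listed row belonged to the Kupffer cell, neutrophil, lymphocyte, stellate cell, endothelial or erythroid markers.

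In the GENCODE M21 annotation of GRCm38, Mt2 (ENSMUSG00000031762, chr8:94172664-94173568) and Mt1 (ENSMUSG00000031765, chr8:94179082-94180327) lie on the plus strand of chromosome 8, with 5513 bases between them. The main transcript of each has 3 exons, and is 511 bases long for Mt2 and 549 bases for Mt1. The span of the antisense gene Gm45774, on the minus strand, overlaps that of Mt2 by 749 bases, introns included. Use of strand in the counting is not given in the sources used here, so any reads of Gm45774 from shared bases could not be told apart from those of Mt2. The longest run of identical bases in the main transcripts of Mt1 and Mt2 was 20 bases. Read in the direction of the transcripts, no run of 50 bases in either occurred in a transcript of any other gene of the annotation. Reads of that length or longer would thus separate Mt1 from Mt2. The search did not cover the opposite strand, so it says nothing of Gm45774.

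The sequence ahead of each gene is shown because both members moved in the same direction and share the regulatory element for which the family is known. The MRE core was searched as TGCACNC and TGCGCNC on both strands, and its matches are in capitals. Both upstream sequences are RefSeq's, build GRCm38.p6, plus strand, 5′ to 3′. Each stretch stops before the earlier of the GENCODE M21 start of the gene and its RefSeq transcription start, which lies 250 bases into its RefSeq promoter window. For Mt1 this was the GENCODE start, which gave 243 bases (chr8:94178839-94179081). For Mt2 it was the RefSeq start, which lies ahead of the GENCODE start given above and gave 250 bases (chr8:94172368-94172617).
Mt1 upstream: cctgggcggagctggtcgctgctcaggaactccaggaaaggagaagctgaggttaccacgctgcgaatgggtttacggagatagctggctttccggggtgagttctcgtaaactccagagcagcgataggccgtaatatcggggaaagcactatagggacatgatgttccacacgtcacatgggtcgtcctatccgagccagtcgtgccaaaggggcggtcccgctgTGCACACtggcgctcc
Mt2 upstream: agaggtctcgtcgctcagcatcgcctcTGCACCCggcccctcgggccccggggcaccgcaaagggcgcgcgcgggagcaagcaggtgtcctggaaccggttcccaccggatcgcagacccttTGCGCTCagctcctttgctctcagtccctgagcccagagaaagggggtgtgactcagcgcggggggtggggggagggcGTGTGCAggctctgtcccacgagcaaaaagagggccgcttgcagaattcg

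The annotated first exons of both genes start ahead of a TATAAA sequence, the usual form of a TATA box, and more MRE cores lie there. For each gene 2 sites of 21 bases are shown, the core nearest to TATAAA and another further out, each named by the number of bases from its start to TATAAA. The search fixed the letters in capitals, so their likeness is not a finding. The sites are chr8:94179102-94179122 and chr8:94179180-94179200 for Mt1, and chr8:94172688-94172708 and chr8:94172722-94172742 for Mt2. All are printed as plus strand bases, 5′ to 3′, and the Mt2 core at 58 is a match on the minus strand. The Mt1 core at 101 lies in the RefSeq promoter window, and the bases of the other sites are from the GENCODE M21 transcripts.
Mt1 core at 101: cgaaaagTGCGCTCggctctg
Mt1 core at 23: aacccttTGCGCCCggactcg
Mt2 core at 58: cgggggcGCGTGCAtggtgcc
Mt2 core at 24: gagctttTGCGCTCgacccaa

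In the 150 bases ahead of TATAAA, Mt1 had 5 MRE cores and Mt2 had 4. The nearest core began 23 bases ahead of TATAAA in Mt1 and 24 bases ahead of it in Mt2. For scale, 1497 RefSeq promoter windows held TATAAA with 150 bases before it, 8.08% of them had at least 1 core there, and 0 had 4 or more. TATAAA lies 121 bases after the RefSeq start in Mt1 and 135 bases after it in Mt2, beyond their own RefSeq windows. Neither gene was thus among the 1497, so the comparison is between unlike positions and gives no rank. In windows of 300 bases (250 before and 50 after the RefSeq start), Mt1 had 3 cores and Mt2 had 4, while Mt3 and Mt4 had 1 each. Of all 32851 such windows, 25.7% held a core, 1.97% held at least 3 and 0.517% held at least 4. A core of the antioxidant response element (TGANNNNGC, which 41.3% of the windows held) began 69 bases ahead of TATAAA in Mt1 and 214 bases ahead of it in Mt2. The match of Mt2 lay in its window of 300 bases, and that of Mt1 lay beyond its window. A STAT site (TTCNNNGAA) and an E-box (CACGTG) were not found between the window's start and the start codon of either gene, and 8.3% and 7.15% of all windows held them. That stretch of Mt1 and Mt2 is longer than a window, so these shares are for scale only. These matches are letters in a sequence, not measured binding.

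**Figure D1:**
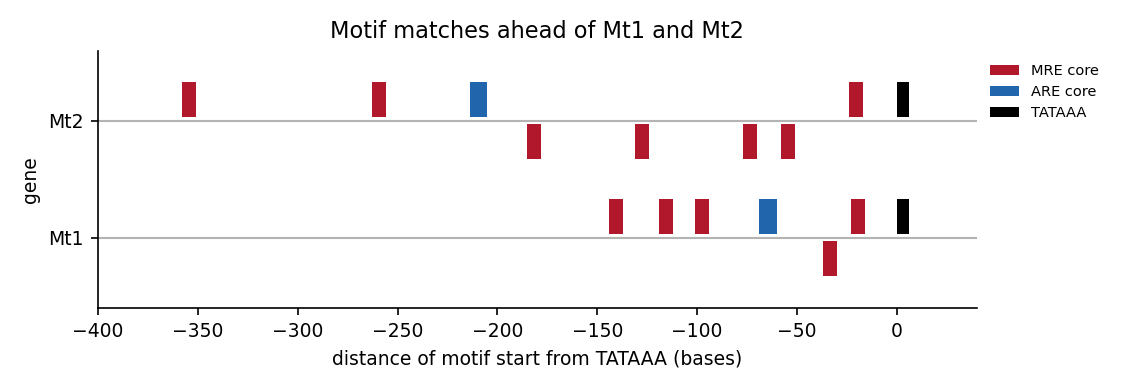
Motif matches ahead of Mt1 and Mt2, placed by the distance in bases of their start from TATAAA. Bars above a line are on the plus strand and bars below it on the minus strand. Mt1 has 5 MRE cores and Mt2 has 4 within 150 bases ahead of TATAAA.

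Both metallothionein transcripts were lower in KO liver, and Mt2 by more than Mt1. Mt1 stood at 236, 348 and 394 FPKM in WT replicates 1, 2 and 3, and at 54.4, 88.5 and 72.7 FPKM in KO replicates 1, 2 and 3. The groups did not overlap: the lowest WT library was 2.66 times the highest KO library. The means were 325.8 ± 81.5 FPKM in WT and 71.9 ± 17.1 FPKM in KO (SD, n = 3 per genotype), 4.54-fold lower in KO. The edgeR log2 fold change of Mt1 was -2.17 ± 0.34 (SE, quasi-likelihood test, adjusted p = 0.00239 over the 389 genes).

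Mt2 stood at 164, 203 and 366 FPKM in WT replicates 1, 2 and 3, and at 26.2, 33.9 and 26.2 FPKM in KO replicates 1, 2 and 3. WT replicate 3 was the highest library for both genes and stood apart more in Mt2, while the 3 KO libraries were close together. The lowest WT library was 4.84 times the highest KO library. The means were 244 ± 107 FPKM in WT and 28.7 ± 4.44 FPKM in KO (SD, n = 3 per genotype), 8.49-fold lower in KO. The edgeR log2 fold change of Mt2 was -3.09 ± 0.38 (SE, quasi-likelihood test, adjusted p = 0.000762). In bulk liver RNA, fewer cells that express a gene and less of its RNA per cell cannot be told apart.

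**Figure D2:**
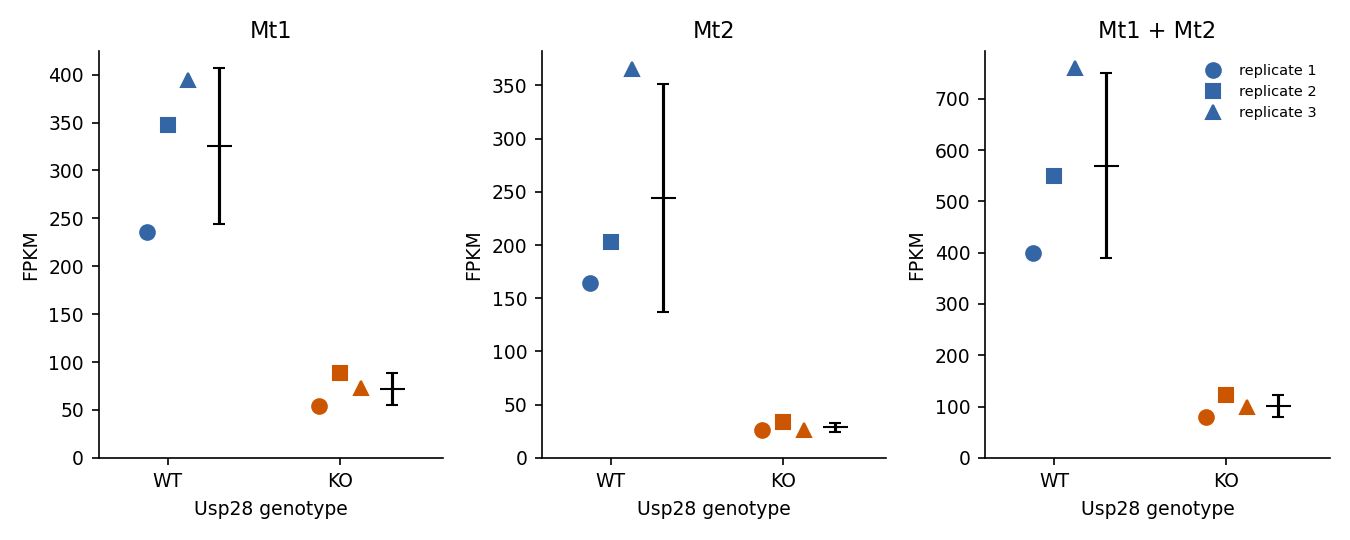
FPKM of Mt1, Mt2 and their sum in each library, by Usp28 genotype. Symbols are the 3 replicates of a genotype, and the black mark with bars is the mean ± SD. The KO libraries sit between 54.4 and 88.5 FPKM for Mt1 and between 26.2 and 33.9 for Mt2, below every WT library.

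Both members passed the test as lower in KO, but so did 59.9% of the listed genes, with 39.8% passing as higher and 99.7% in either direction, since the table was selected on this contrast. The count of members therefore says nothing beyond the selection. Likewise 55.0% of the listed genes were lower with no overlap between the 3 KO and the 3 WT values. The exact two-sided permutation test of log2 FPKM gave p = 0.1 for each member, the smallest value that 3 against 3 samples allow. The authors' deposited table gave log2 fold changes of -2.18 for Mt1 (FDR 2.01e-14) and -3.09 for Mt2 (FDR 9.19e-33). The authors' p-values and FDR imply about 16198 tested genes. With edgeR's p-values adjusted over that number, an alternative chosen after seeing the data, Mt2 passed (adjusted p = 0.0317) and Mt1 did not (adjusted p = 0.0993). Of the listed genes, 1.29% passed in that way, all lower in KO. Both passed with DESeq2's p-values under the same adjustment (8.94e-07 for Mt1 and 7.62e-12 for Mt2).

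In size, the fall of Mt2 was the 16th and that of Mt1 the 41st of the 389 genes, and the median over the 233 lower genes was a log2 fold change of -1.43. Both were among the more abundant rows. By mean FPKM in WT, Mt1 ranked 17th and Mt2 23rd, against 54th and 91st in KO. Of the 48 listed genes with at least 100 FPKM in WT, 43 were lower in KO, and in these the fall of Mt2 was second in size to that of Cidec, a lipid droplet gene. Mt1 came 5th there, after Ly6d and Ehhadh.

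**Figure D3:**
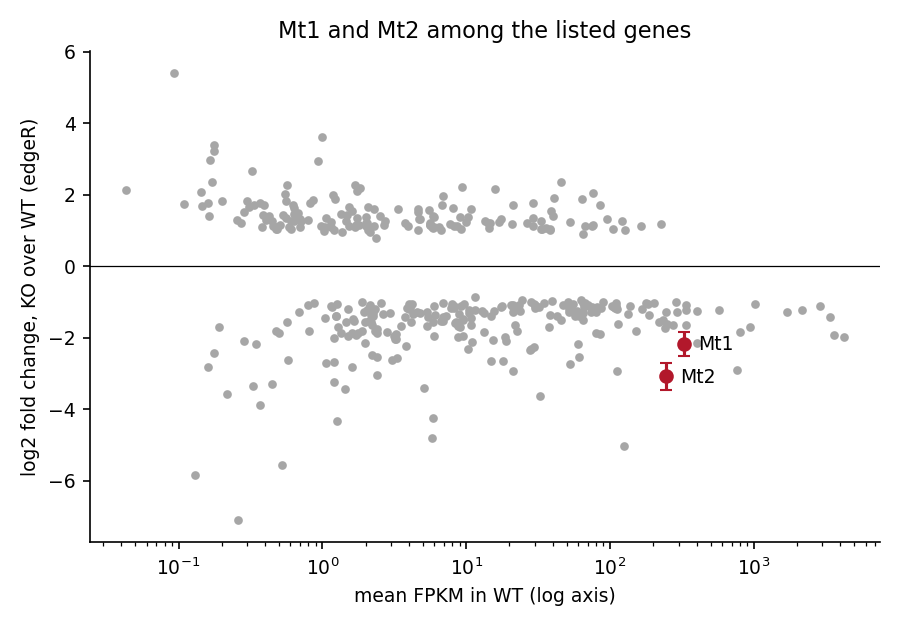
Each point is a listed gene, with its mean FPKM in WT on a log axis and its edgeR log2 fold change, KO over WT. Bars on Mt1 and Mt2 are the SE. The empty band around 0 is the authors' selection on fold change, and Mt1 at -2.17 and Mt2 at -3.09 lie among the abundant genes.

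Together the pair supplied 400, 550.3 and 760 FPKM in WT replicates 1, 2 and 3, against 80.5, 122 and 98.8 FPKM in KO replicates 1, 2 and 3. As counts, this was 214 to 404 CPM (reads scaled to recovered depth) in WT and 43.5 to 66.7 CPM in KO. The sum was 5.67-fold lower in KO by group means (569.9 ± 181 against 101 ± 21.0 FPKM, SD, n = 3 per genotype). The exact two-sided permutation test of its log2 gave p = 0.1, again the smallest possible value.

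The balance between the genes also differed by genotype. Mt1 was the more abundant transcript per length in each of the 6 libraries. The ratio of Mt2 to Mt1 FPKM was 0.696, 0.583 and 0.927 in WT replicates 1, 2 and 3, against 0.482, 0.382 and 0.360 in KO replicates 1, 2 and 3. Every KO library had a lower ratio than every WT library, and the lowest WT ratio was 1.21 times the highest KO ratio. Its mean was 0.735 ± 0.175 in WT and 0.408 ± 0.0645 in KO (SD, n = 3 per genotype). On the log2 scale the KO mean was lower by -0.83. The exact two-sided permutation test of this difference, which is also the test of whether Mt2 fell by more than Mt1, gave p = 0.1, the smallest value possible, so it could not pass 0.05. The ratio does not depend on sequencing depth or on how the libraries are scaled. Without WT replicate 3 the log2 difference was -0.65.

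Read counts gave the same order. Mt2 made up 39.2% of the reads of the pair in WT replicate 1 (95% exact Clopper-Pearson interval 37.8 to 40.7%, 4351 reads). It made up 35.1% in WT replicate 2 (34.0 to 36.2%, 7131 reads) and 46.2% in WT replicate 3 (45.2 to 47.3%, 8218 reads). These intervals, which cover counting error only, do not overlap, so the WT libraries differed from each other by more than counting error. In KO replicates 1, 2 and 3 the share was 30.8% (27.8 to 33.9%, 907 reads), 26.0% (23.7 to 28.3%, 1475 reads) and 25.1% (22.6 to 27.7%, 1164 reads). The upper limit of the highest KO share, 33.9%, lay just under the lower limit of the lowest WT share, 34.0%.

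**Figure D4:**
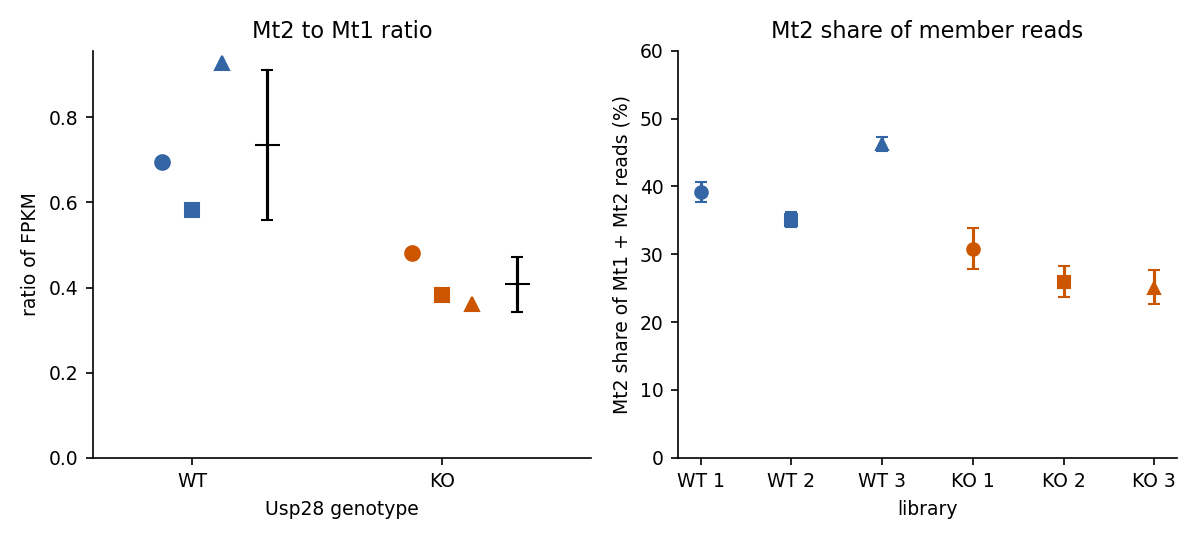
Left, ratio of Mt2 to Mt1 FPKM by genotype, with replicates as symbols and the mean ± SD in black. Right, Mt2 as a percentage of the reads of Mt1 and Mt2 in each library, with 95% exact intervals. WT libraries lie between 35.1% and 46.2% and KO libraries between 25.1% and 30.8%.

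Within a genotype the pair moved together only in part. Relative to the group mean on the log2 scale, Mt1 was at -0.43, 0.13 and 0.31 in WT replicates 1, 2 and 3, and Mt2 at -0.49, -0.18 and 0.67. WT replicate 1 was thus the lowest and WT replicate 3 the highest for both, and the genes differed most in WT replicate 3. In KO replicates 1, 2 and 3, Mt1 was at -0.37, 0.33 and 0.04, and Mt2 at -0.12, 0.25 and -0.12. KO replicate 2 was the highest for both, and KO replicates 1 and 3, equal in Mt2, differed in Mt1. The coefficient of variation was 25.0% in WT and 23.8% in KO for Mt1, and 43.8% and 15.4% for Mt2. The medians over the 233 lower genes were 38.4% and 18.4%.

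WT replicate 3 was the highest WT library in 85 of the 233 lower genes, Mt1 and Mt2 among them. It was also the highest for the 6 of 12 recruited macrophage markers with a row (Itgam, Itgax, Cd14, Lgals3, Gpnmb and Mmp12), whose summed level was 30.8 to 168 FPKM in WT and 20.7 to 28.9 in KO. None of these 6 was at 0 in any library. The groups overlapped in Cd14 and Lgals3, and neither was called without WT replicate 3 (edgeR adjusted p = 0.157 and 0.0642). The call of Itgam ended when WT replicate 1 or either of KO replicates 2 and 3 was left out. The call of Cd14 also ended with any 1 KO library left out. That of Lgals3 ended without KO replicate 2 and that of Itgax without KO replicate 1. Gpnmb and Mmp12 stayed called whichever library was left out. The 1 listed cholangiocyte marker of 7, Cldn4, was at 3.25 FPKM in WT replicate 3 and at 0.03 to 0.41 FPKM in the other libraries. Without WT replicate 3 the log2 fold change was -2.01 for Mt1 and -2.67 for Mt2, both still called (edgeR adjusted p = 0.000409 and 0.000107). The part of other cell types in the fall of Mt1 and Mt2 was not tested.

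The genes whose deviations from the group means were most like those of Mt2 over the 6 libraries were Pygl (Pearson r of log2(FPKM + 1), 0.983), Rsad2 (0.983), Aqp8 (0.979), Tle3 (0.976) and Serpina12 (0.972). Pygl encodes liver glycogen phosphorylase, Rsad2 the interferon-induced protein viperin and Aqp8 an aquaporin. Of these 5, only Rsad2 was lower in KO (log2 fold change -1.43), and the other 4 were higher, Aqp8 by 1.71. Without WT replicate 3, Rsad2 was at -0.46 and did not pass (edgeR adjusted p = 0.164), and Aqp8 was at 2.77. Leaving out any 1 KO library also ended the call of Rsad2, and leaving out KO replicate 2 that of Aqp8 (adjusted p = 0.0649 in edgeR). For Mt1 they were Hgfac (0.947), Plcxd1 (0.923), Rnd1 (0.911), Slc2a1 (0.910) and Hcn3 (0.907). Rnd1 and Slc2a1, the latter of which encodes the glucose transporter GLUT1, were lower in KO by log2 fold changes of -1.37 and -1.39, and the other 3 were higher. Mt1 and Mt2 had r = 0.774 with each other. By this measure Mt1 was 90th of 388 genes in likeness to Mt2, and Mt2 20th in likeness to Mt1. With 6 libraries centred in 2 groups these correlations are descriptions that all rest on the same few deviations.

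Few other genes of metal handling had a row, as for genes in general: the 389 listed genes were 2.4% of the genes the authors tested, so no shortage is read from the counts that follow. Mt3 and Mt4 had no row. Of 25 genes of zinc transport with MTF1, 1 had a row: Slc30a10, which encodes an exporter of manganese, was higher in KO. It stood at 2.05, 2.06 and 2.73 FPKM in WT replicates 1, 2 and 3, and at 5.15, 5.10 and 4.70 in KO replicates 1, 2 and 3 (log2 fold change 1.13 ± 0.28, SE, edgeR adjusted p = 0.00824). None of 14 copper genes or 24 antioxidant enzyme genes had a row. Genes without a row were not analysed here.

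Of 17 iron genes 2 had a row, and they went in opposite directions. Hamp2, a hepcidin gene, was at 31.0, 20.5 and 85.9 FPKM in WT replicates 1, 2 and 3, and at 295, 167 and 244 in KO replicates 1, 2 and 3 (log2 fold change 2.36 ± 0.52, SE, edgeR adjusted p = 0.00584). Id1, a target of BMP signalling, was lower (log2 fold change -1.28 ± 0.33, SE, edgeR adjusted p = 0.00844). In the table's own annotation, Mt1 and Mt2 were the only listed genes of the pathway of mineral absorption. They were also the only ones with the terms for cellular response to zinc, to cadmium and to copper ions. Other metal terms held further listed genes: response to zinc ion also took in Khk, and cellular zinc ion homeostasis Slc30a10, both higher in KO. Copper ion binding held Mt1, Apoa4 and Gpc1, all lower in KO. Of 18 listed genes with the term for zinc ion binding, 12 were lower and 6 higher in KO, with a median log2 fold change of -1.19, against -1.10 over all listed genes.

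Few genes from the lists for pathways known to raise metallothionein transcription had a row, and these included both higher and lower genes. No direction of a pathway is read from them, and the part of these pathways in the fall of Mt1 and Mt2 was not tested. Of 21 glucocorticoid-induced genes or genes of glucocorticoid supply, 2 had a row. Serpina6, which encodes corticosteroid-binding globulin, was higher in KO (log2 fold change 1.91 ± 0.40, SE, edgeR adjusted p = 0.00462). Cdkn1a, which encodes the cell cycle inhibitor p21, was lower (-1.26 ± 0.43, SE, edgeR adjusted p = 0.0175), with overlapping groups. Leaving out WT replicate 2, or either of KO replicates 1 and 2, ended its call (adjusted p = 0.0628, 0.0551 and 0.0766 in edgeR). The direct glucocorticoid receptor targets Fkbp5, Tsc22d3, Per1 and Tat were not among them.

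Of 32 acute phase and STAT3 genes other than Mt1 and Mt2, 4 had a row, of which 3 were lower (Il1rn, Lcn2 and Socs3) and 1, Hamp2, was higher. Il1rn, which encodes the interleukin-1 receptor antagonist, was at 19.9, 16.0 and 27.2 FPKM in WT replicates 1, 2 and 3, and at 2.04, 2.86 and 2.30 in KO replicates 1, 2 and 3. Its log2 fold change of -2.94 was near that of Mt2, and WT replicate 3 and KO replicate 2 were the highest library of their groups in both genes. Lcn2, which encodes the siderophore-binding protein lipocalin 2, was at 28.8, 33.9 and 120 FPKM in WT replicates 1, 2 and 3, and at 12.4, 11.0 and 8.02 in KO replicates 1, 2 and 3. Socs3, the feedback inhibitor of STAT3 signalling, was lower by a smaller amount (log2 fold change -1.20 ± 0.35, SE, edgeR adjusted p = 0.0116), with WT replicate 1 as its highest library. Without that library Socs3 did not pass (edgeR adjusted p = 0.0572), and Lcn2 moved to a log2 fold change of -1.58 when WT replicate 3 was left out.

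Of 34 NRF2 pathway genes 1 had a row, Osgin1, an oxidative stress gene, which was higher in KO (log2 fold change 1.71 ± 0.50, SE, edgeR adjusted p = 0.0115). With KO replicate 2 left out its edgeR adjusted p was 0.0531. Of 15 heat shock genes 1 had a row, Hspb1, which encodes a small heat shock protein and was lower (-1.02 ± 0.35, SE, edgeR adjusted p = 0.0184). Leaving out KO replicate 2 or 3 ended the call of Hspb1 (adjusted p = 0.0603 and 0.0698 in edgeR), and leaving out WT replicate 3 moved it to -0.67. Of 16 fasting response genes 9 had a row, and these 9 passed as lower, with a median log2 fold change of -1.73. As 59.9% of all listed genes passed as lower in a table selected on this contrast, nothing is read from that count. They included Cidec (-5.04), the lipid droplet gene, Acot1 (-2.73), which encodes an acyl-CoA thioesterase, Vnn1 (-2.17), the pantetheinase gene, and Cpt1a (-1.73), the gene of the carnitine shuttle. Acot1 can share reads with its close relative Acot2. The call of Cyp4a14, a cytochrome P450 gene of fatty acid omega-oxidation, ended when KO replicate 2 was left out (adjusted p = 0.0574 in edgeR). Their order among WT libraries differed from that of Mt2: the summed level of the 9 genes was 9104 and 9180 FPKM in WT replicates 1 and 2 and 3371 in WT replicate 3, where Mt2 was highest.

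**Figure D5:**
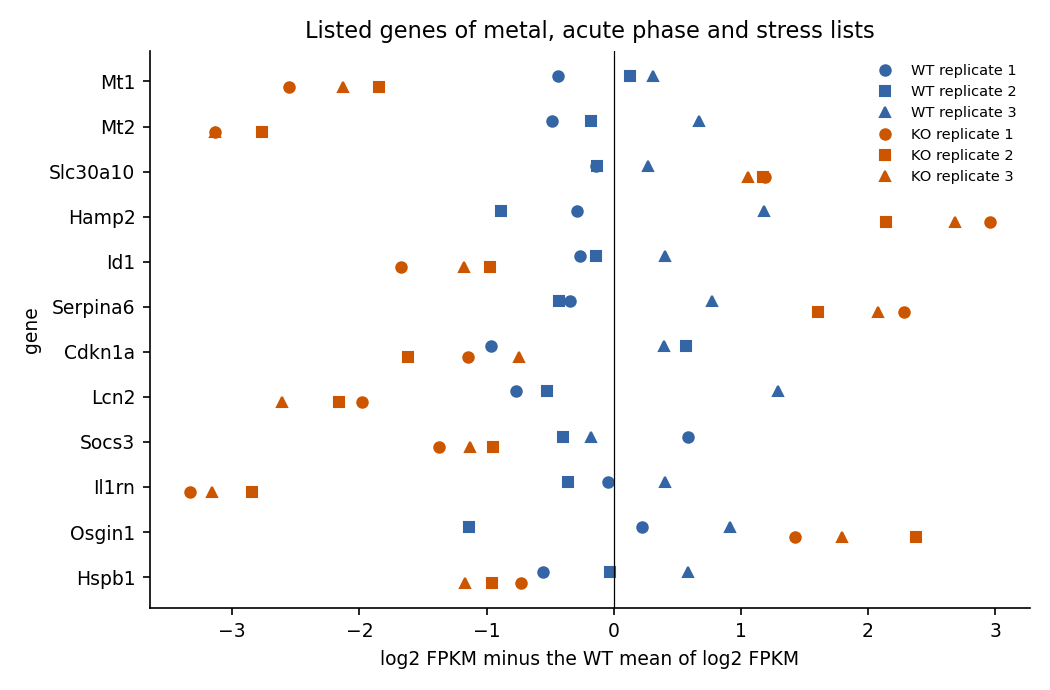
Log2 FPKM of each listed gene of the metal, glucocorticoid, acute phase, NRF2 and heat shock lists, minus its WT mean on the log2 scale. Blue symbols are WT and orange symbols KO, with 1 symbol per library. Mt1, Mt2, Id1, Cdkn1a, Lcn2, Socs3, Il1rn and Hspb1 lie below 0 in KO, and Slc30a10, Hamp2, Serpina6 and Osgin1 above 0.

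Within 250000 bases of the pair the annotation has 24 genes, 12 of them protein-coding, and 3 had a row: Mt1, Mt2 and Herpud1. Herpud1 (chr8:94386438-94395377), which encodes a protein of degradation at the endoplasmic reticulum, begins 206111 bases after the end of Mt1 and was higher in KO. It stood at 87.9, 103 and 124 FPKM in WT replicates 1, 2 and 3, and at 146, 232 and 275 in KO replicates 1, 2 and 3 (log2 fold change 1.05 ± 0.34, SE, edgeR adjusted p = 0.0153). Its call ended when WT replicate 1 or either of KO replicates 2 and 3 was left out (adjusted p = 0.0529, 0.0535 and 0.0729 in edgeR). The flanking genes Nup93, Bbs2 and Slc12a3 had no row.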

How the data were processed

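Liver RNA of 3 KO and 3 WT samples was sequenced from total RNA with a NEBNext Ultra library kit, per the labels' protocols. The submitters' processing notes name fastp 0.18.0, HISAT2, StringTie 1.3.1 and RSEM; the sources used here do not give their roles, the genome build, the read length or the authors' test. Deposited by the authors were whole-number counts and FPKM values per gene and sample, per the file headers, with group means of FPKM, a log2 fold change of those means, a p-value and an FDR, for 389 selected genes. Of their IDs, 388 matched GENCODE M21.

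For each library, depth was the median over genes of the count per FPKM and base of transcript, from genes with a single annotated transcript (minimum 50 counts and 1 FPKM). Listed genes took 3.73% to 8.81% of it. Counts were tested with edgeR 4.0.16 (R 4.3.3), quasi-likelihood, recovered depth as library size, no scaling or filter, and Benjamini-Hochberg adjustment over the 389 genes (threshold 0.05). The SE is the size of the log2 fold change over the root of the F statistic. Single values were tested by exact permutation (scipy 1.17.1). Alternatives used DESeq2 1.42.0, limma 3.58.1, other scalings, pseudocounts of 1 and 0.1, a filter, the replicate block and leaving out each sample. Fits were tested on simulated data.

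The members and gene lists were chosen with earlier results of these data known. Named genes were Mt1 and Mt2, up to 4 per pathway list with the largest absolute log2 fold change, the 5 most like each member, and neighbours. The cell type markers with a row were all named. Annotation terms, Ly6d, Ehhadh, the genes without a row and Cpt1a, which is not among the first 4 of its list, were named after values were seen.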

Additional observations from a re-analysis of the deposited data

How the results depend on the processing

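Mt1 and Mt2 kept their direction under every alternative run, and both stayed called except Mt1 under edgeR's p-values adjusted over the genes the authors tested (log2 fold change -2.17, adjusted p = 0.0993). That adjustment left 5 listed genes called, and DESeq2's p-values adjusted in the same way left 153, against 388 of 389 in the reported test (155 higher, 233 lower, 39.9% higher). Scalings that take the listed genes as mostly unchanged moved the median log2 fold change from -1.10 to -0.525 (TMM), -0.448 (RLE and DESeq2's own factors) and -0.129 (summed counts of the table as library size). They called 250, 236, 240 and 181 genes, in the order TMM, RLE, DESeq2's own factors and summed counts, of which 62.4%, 66.1%, 65.0% and 85.1% were higher. Under them Mt1 was at -1.59, -1.56, -1.56 and -1.26 and Mt2 at -2.48, -2.47, -2.48 and -2.24, so each stayed below the median gene. Leaving out 1 sample gave 279 to 372 called genes, log2 fold changes of -2.36 to -2.01 for Mt1 and -3.30 to -2.67 for Mt2 (largest edgeR adjusted p 0.0193 and 0.0142), log2 ratio differences of -0.99 to -0.65 and summed-level differences of -2.71 to -2.24. With 2 against 3 samples the permutation test cannot go below p = 0.2, so it says nothing of stability for the ratio and the sum.

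The labels give both genotypes the numbers 1 to 3. Deviations of same-numbered samples correlated over genes at 0.0447, 0.077 and -0.0515, so the numbers were not taken as pairs. With the replicate block edgeR called 382 genes, Mt1 at -2.17 and Mt2 at -3.01, the log2 ratio difference stayed -0.83 and that of the sum -2.47 (exact sign-flip p = 0.25 for both, the smallest that 3 pairs allow).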

Other observations

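The counts and FPKM of a gene together give the transcript length that the FPKM values were scaled to. For Mt2 this was 511 bases in every library, the length of its main annotated transcript. For Mt1 it was 551, 551 and 551 bases in WT replicates 1, 2 and 3, and 554, 557 and 550.0 bases in KO replicates 1, 2 and 3, against 549 bases for the main transcript. Annotated longer transcripts of Mt1 have 633 and 1085 bases, 1 of them without introns. The Mt2 to Mt1 ratio is therefore almost the same in counts and in FPKM, with log2 differences between KO and WT of -0.84 and -0.83.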
